A study of Homo sapiens with 10 samples.

Results

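The transcription factors of the GFI1 and Snail families carry a SNAG domain, a short stretch at the start of the protein. All 5 such genes considered here, GFI1, GFI1B, SNAI1, SNAI2 and SNAI3, were taken by gene symbol among the 19975 protein-coding genes, of 60603 genes in all, in RNA-seq tables of NB4 cells. NB4 is a human acute promyelocytic leukemia (APL) cell line. SNAI2 was too low for a test, so 4 of the 5 could be tested in all 3 comparisons.

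The tables compare NB4 cells in 5 groups of 2 libraries. In the knockdown arm, cells went through 2 rounds of lentiviral infection with pLKO.1 puro and were collected 48 h after transduction, the vector carrying no insert (EV) or one of 2 short-hairpin RNAs (shRNAs) against GSE1, shA1 or shB2. In the inhibitor arm, cells that were not transduced received MC2580, an inhibitor of the histone demethylase LSD1 (KDM1A), at 2 µM or DMSO for 24 h. The knockdown asks what GSE1, a partner of LSD1 in corepressor complexes, does to the transcriptome, and the inhibitor arm asks how blocking LSD1 compares with it. All groups are 1 cell line, and the arms differ in infection and in time as well as in treatment.

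The SNAG domain resembles the tail of histone H3 and docks in the catalytic pocket of LSD1, and through it these zinc finger proteins bring LSD1, CoREST (RCOR1) and histone deacetylases to the genes they repress. GFI1 acts in granulocyte development and GFI1B in the erythroid and megakaryocyte lineages. GFI1 and GFI1B are known to repress their own genes and each other's, whereas the SNAI factors are best known for repressing epithelial genes such as CDH1 in the epithelial-mesenchymal transition.

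The sequence that the members share is shown first, since it is what groups them. The first 60 bases (20 codons) of the coding sequence were taken from the canonical GENCODE transcripts of GFI1 and GFI1B. Capitals mark the 7 codons whose encoded residue is the same in all 5 members, and these are the first 7 codons of each gene.
GFI1: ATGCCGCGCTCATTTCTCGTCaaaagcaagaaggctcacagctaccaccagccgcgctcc
GFI1B: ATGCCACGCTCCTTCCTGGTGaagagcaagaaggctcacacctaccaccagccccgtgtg

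Beyond these 7 residues the family splits. Among the first 20 residues, GFI1 and GFI1B share 18, SNAI1 and SNAI2 share 13, and SNAI1 shares 8 with GFI1 and 7 with GFI1B. Over the whole proteins, of 422 residues for GFI1, 330 for GFI1B, 264 for SNAI1 and 292 for SNAI3, identity was 49.3% between GFI1 and GFI1B, 52.0% between SNAI1 and SNAI2, and 20.8% between GFI1 and SNAI1. A zinc finger spacing of C-x2-C-x12-H-x3-5-H, where x is any residue, was found 6 times in GFI1 and in GFI1B, 4 times in SNAI2 and SNAI3 and 3 times in SNAI1.

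The promoter shown here is that of GFI1B, for which the study also lists a pair of ChIP-qPCR primers. The study's ChIP-qPCR measured binding of V5-tagged GSE1 in cells made to overexpress it, not binding of GFI1 or GFI1B. RefSeq's GRCh38.p14 table holds 300-base windows (250 bases before to 50 after a transcription start) for 2 starts of GFI1B and 3 of GFI1. They were searched for AATC or GATT, the core of the GFI1 and GFI1B binding site read on either strand, and for CACCTG or CAGGTG, the E-box that SNAI factors bind, read on either strand, with overlapping matches counted. The window at the downstream start of GFI1B held 4 AATC or GATT cores, a number that 9.95% of 35116 promoter windows reach or exceed. Its 250 bases before the start, on the plus strand at chr9:132978444-132978693, are printed with these cores in capitals.
GFI1B promoter: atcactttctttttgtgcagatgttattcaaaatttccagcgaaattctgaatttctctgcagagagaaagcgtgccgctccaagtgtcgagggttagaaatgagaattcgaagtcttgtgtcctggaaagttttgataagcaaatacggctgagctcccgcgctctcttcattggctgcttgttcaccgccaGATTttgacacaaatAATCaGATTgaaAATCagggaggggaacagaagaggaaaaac

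Counted from the start, the 4 cores begin at -57, -42, -37 and -30. The ChIP-qPCR amplicon of 179 bases, placed here on hg38 at chr9:132978613-132978791, covers all 4 cores. Its primers are shown because they fix the region that was assayed.
Forward primer: tcattggctgcttgttcacc
Reverse primer: gaactgcaaagcctctctcg

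The window at the upstream start of GFI1B held 2 cores and each of the 3 GFI1 windows held 1, and 69.0% of all promoter windows hold at least 1. None of the 5 windows held CACCTG or CAGGTG, which 20.6% of promoter windows do. These matches describe the letters of the windows and were not measured as binding.

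Levels were set by the base mean, the mean of normalised counts over all libraries of a table, divided by the length of the canonical transcript in kb. GFI1, on chromosome 1 (92473043 to 92486925, minus strand, GRCh38), was the most abundant member, with 1616 base mean counts per kb in the knockdown arm and 2067 in the inhibitor arm. SNAI3 followed with 403 and 559, GFI1B with 158 and 250, and SNAI1 with 61.7 and 26.6. This order was the same in both arms. SNAI2 was near 0, with 0.0673 and 0.359 base mean counts per kb. The tables give no value per library, so the spread of these levels, and whether neighbours in the order differ beyond it, cannot be given.

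The labelled cell type was compared with its markers. The promyelocyte genes MPO, PRTN3, AZU1, CTSG and CD33 had base means of 723 to 506765 in the knockdown arm, whereas ELANE, which encodes neutrophil elastase, was near 0 with base means of 1.10 and 3.87 in the knockdown and inhibitor arms. HBA1 and HBA2 of erythroid cells were at 0 in both arms. The T cell gene CD3D had base means of 866 and 869 and the epithelial gene EPCAM 432 and 403, while CD3E and CDH1 were below 3 in both arms. The base means summed to 40543100 counts in the knockdown arm and 41201100 in the inhibitor arm, which is the average depth of a library.

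GSE1, the gene the hairpins target, was checked first. Its log2 fold change was -0.77 under shA1 (standard error (SE) 0.13, adjusted p = 2.47e-07, authors' DESeq2 Wald test) and -0.79 under shB2 (SE 0.14, adjusted p = 7.66e-08), which leaves 0.587 and 0.580 of the EV level. Under MC2580 it was 0.07 (SE 0.20, adjusted p = 1.00). The LSD1 gene KDM1A stood at -0.03, 0.03 and -0.05 in the same 3 comparisons. The transcript of the targeted gene was thus lowered to a like extent by both hairpins, with a difference of -0.02 between them (95% interval -0.39 to 0.36). This holds for RNA only. For GSE1 protein, by western blot at a later time, the paper describes shB2 as the more effective hairpin. In bulk RNA, a change in each cell and a change in the share of cells that carry a transcript cannot be told apart, here or for the members.

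Of the 4 testable members, GFI1B and SNAI1 rose under shA1, SNAI1 rose under shB2 and GFI1B rose under MC2580, and none fell by the threshold used. A gene was called when its adjusted p-value was under 0.01 and its log2 fold change over 1 in size. Under shA1, 4.32% of 16673 tested genes were called higher and 0.786% lower. Under shB2, 5.58% of 17913 were called higher and 2.91% lower. Under MC2580, 0.587% of 18554 were called higher and 0.0162% lower. With 4 members tested, 2 were higher under shA1, 1 under shB2 and 1 under MC2580.

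**Figure D1:**
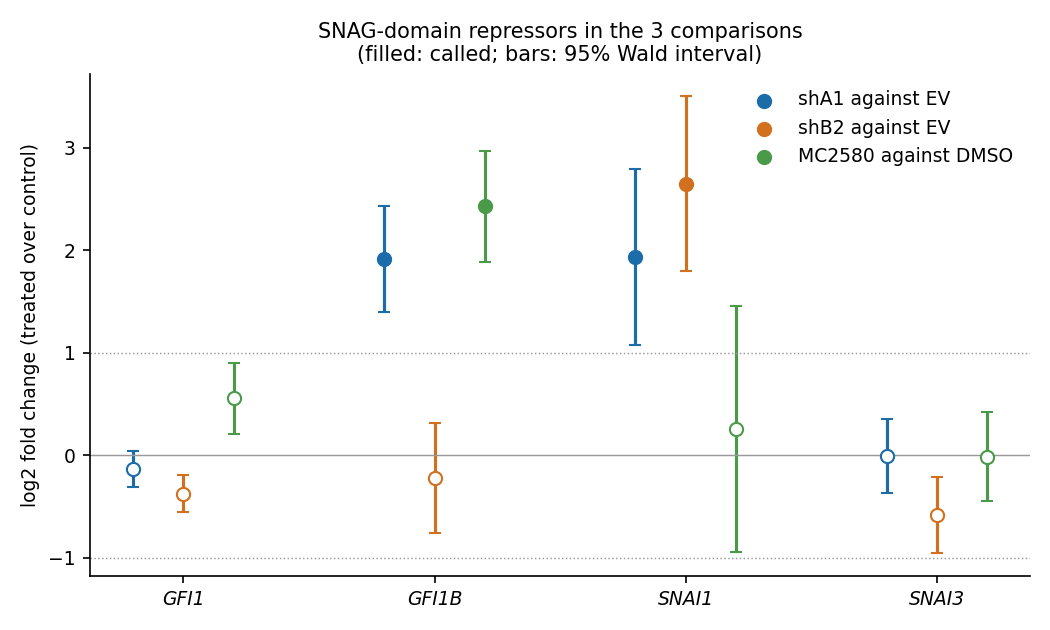
Log2 fold change (treated over control) of the 4 testable members, with 95% Wald intervals as bars, for both hairpins against EV and for MC2580 against DMSO. Filled points were called and open points were not. GFI1B lies at 1.91 under shA1 and 2.43 under MC2580 but at -0.22 under shB2, whereas SNAI1 lies at 1.93 and 2.65 under the hairpins and 0.25 under MC2580.

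GFI1B, the repressor of the erythroid and megakaryocyte lineages, lies on chromosome 9 (132944000 to 132991687, plus strand) as ENSG00000165702.14. Group levels solved from its base means of 284 and 450 and its fold changes were 151 normalised counts in EV, 570 under shA1 and 130 under shB2, against 141 in DMSO and 758 under MC2580. Within the knockdown arm shA1 was thus high and shB2 close to EV, and within the inhibitor arm MC2580 was high. The arms were normalised apart, so levels are compared only within an arm. Under shA1 the transcript rose 3.77-fold (95% interval 2.64 to 5.38, log2 fold change 1.91, SE 0.26, adjusted p = 1.17e-11). Under MC2580 it rose 5.38-fold (95% interval 3.70 to 7.83, log2 fold change 2.43, SE 0.28, adjusted p = 4.51e-15), and by p-value it ranked 6 among all genes of that comparison and, by fold change, 29 among the 109 genes called higher. Under shB2 the log2 fold change was -0.22 (SE 0.27, 95% interval -0.75 to 0.32, adjusted p = 0.617), an interval that leaves out the rise seen with shA1.

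The hairpins differed for GFI1B. The difference of log2 fold changes, shB2 minus shA1, was -2.13 (SE 0.38, 95% interval -2.87 to -1.39, Wald test of the difference across all genes, adjusted p = 9.79e-07), and 3.03% of 16673 genes were called in this test. Both hairpins share the EV libraries, so the SE used is an upper bound if their errors are positively correlated. MC2580 and shB2 also differed, by 2.65 (SE 0.39, adjusted p = 2.87e-09), where 4.51% of 17378 genes were called. MC2580 and shA1 differed by 0.51 (SE 0.38, 95% interval -0.23 to 1.26, adjusted p = 0.596), where 2.01% of 16495 genes were called. The last p-value does not show that shA1 and MC2580 act alike, since a difference of up to 1.26 lies within the interval. The arms were fitted apart, against separate controls, and infection and time cannot be told apart from treatment in these differences.

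**Figure D2:**
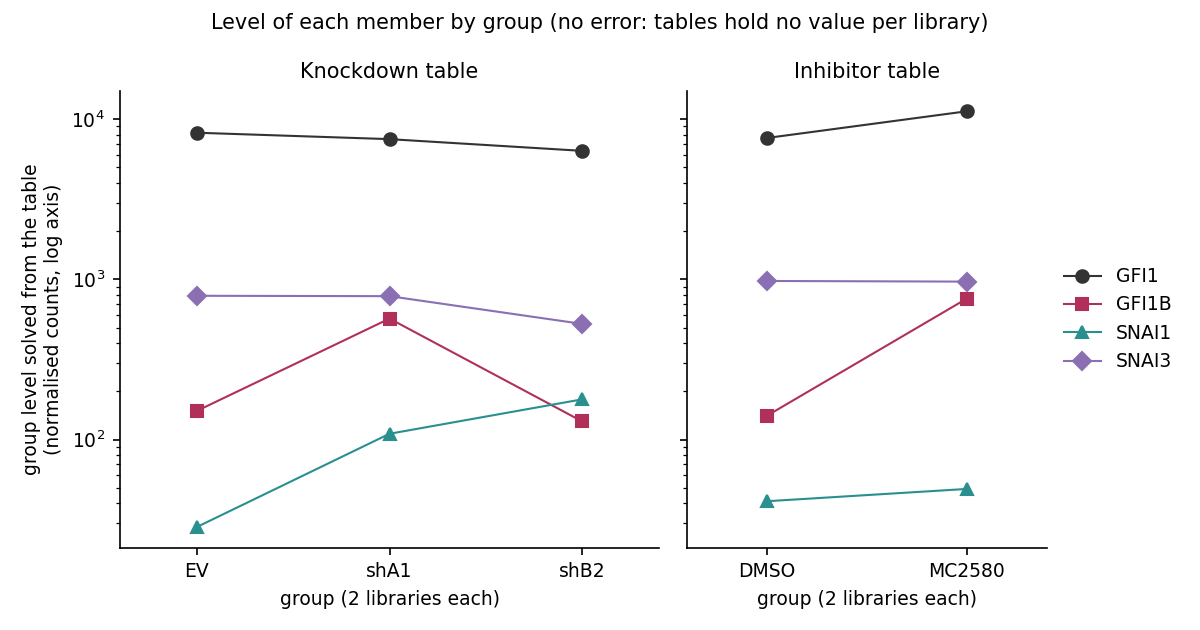
Group level in normalised counts (log axis), solved from base mean and fold changes, for each member in the 5 groups of 2 libraries. No error is drawn because the tables give no value per library. GFI1B is high in shA1 (570) and MC2580 (758), and SNAI1 goes from 28.5 in EV to 109 and 179 under the hairpins.

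SNAI1, a well-known inducer of the epithelial-mesenchymal transition, lies on chromosome 20 (49982980 to 49988886, plus strand) as ENSG00000124216.4. Its solved levels were 28.5 normalised counts in EV, 109 under shA1 and 179 under shB2, against 41.3 in DMSO and 49.3 under MC2580. Both hairpins were above EV, while the inhibitor arm stayed level. The rise was 3.82-fold under shA1 (95% interval 2.11 to 6.92, log2 fold change 1.93, SE 0.44, adjusted p = 1.06e-04) and 6.27-fold under shB2 (95% interval 3.47 to 11.3, log2 fold change 2.65, SE 0.43, adjusted p = 1.53e-08). The hairpins differed by 0.71 on the log2 scale (SE 0.62, 95% interval -0.50 to 1.92, adjusted p = 0.662). Under MC2580 the log2 fold change was 0.25 (SE 0.61, adjusted p = 1.00), and the 95% interval of -0.94 to 1.45 takes in rises of up to 2.74-fold. The difference of MC2580 from shB2, -2.39 (SE 0.75, adjusted p = 0.0186), and that from shA1, -1.68 (SE 0.75, adjusted p = 0.217), did not pass the 0.01 threshold. With a base mean of 45.3 counts in the inhibitor arm, SNAI1 had the widest intervals of the testable members.

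GFI1, the granulocyte factor whose contact with LSD1 is known to be disturbed by inhibitors of the enzyme, carries the identifier ENSG00000162676.12. Its solved levels were 8230 normalised counts in EV, 7505 under shA1 and 6343 under shB2, against 7629 in DMSO and 11199 under MC2580. The level was thus lowest under shB2 in its arm and higher under MC2580 than in DMSO. Under shB2 the log2 fold change of -0.38 (SE 0.09, adjusted p = 2.43e-04) passed the p-value but not the fold threshold. At any fold, 26.3% of the genes tested passed the p-value in either direction, those past the fold threshold included. Under shA1 it was -0.13 (SE 0.09, adjusted p = 0.318), and the hairpins differed by -0.24 (95% interval -0.50 to 0.01, adjusted p = 0.289). Under MC2580 it was 0.55 (SE 0.18, 95% interval 0.21 to 0.90), with p = 0.00166 before and 0.116 after adjustment in the authors' DESeq2 Wald test. MC2580 minus shB2 was 0.93 (SE 0.20, adjusted p = 1.36e-04), again past the p-value but not the fold threshold, where 6.24% of genes passed the p-value at any fold.

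SNAI3, a further Snail family repressor, lies on chromosome 16 (88677688 to 88686507, minus strand) as ENSG00000185669.6. Its solved levels were 791 normalised counts in EV, 786 under shA1 and 528 under shB2, against 978 in DMSO and 969 under MC2580. The shB2 group was the lowest of its arm. The log2 fold change there was -0.58 (SE 0.19, adjusted p = 0.00752) and did not reach the fold threshold. It was -0.01 under shA1 (SE 0.19) and -0.01 under MC2580 (SE 0.22). The hairpins differed by -0.58 (95% interval -1.09 to -0.06, adjusted p = 0.178), a difference that did not pass. The antisense gene SNAI3-AS1, on the plus strand, spans the whole of SNAI3, introns included. The library kit does not mark strand, so strand cannot separate their reads, and whether their exons overlap was not examined. SNAI3-AS1 had log2 fold changes of 0.05, 0.22 and 0.28 under shA1, shB2 and MC2580, none of which passed.

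SNAI2, on chromosome 8 (48917598 to 48921740, minus strand) as ENSG00000019549.13, had base means of 0.147 and 0.783, which is under 1 read a library. It received no adjusted p-value, and no fold change is given. The other 5 SNAG-domain genes listed, INSM1, INSM2, SCRT1, SCRT2 and OVOL1, had no adjusted p-value in any comparison either, with base means of at most 1.65.

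The genes next to a member were read in the same way, to see whether a change reached along the chromosome. Of the 30 nearest protein-coding genes, 3 on each side of each member, 24 had a test in each comparison. Over all genes, 4.32% were called higher and 0.786% lower under shA1, 5.58% and 2.91% under shB2, and 0.587% and 0.0162% under MC2580. Counts among 24 genes are too small, beside these shares, to show whether a change spread. None of the 24 was called under shA1 or MC2580, and 1 was called under shB2. That gene was EVI5 beside GFI1, a regulator of Rab GTPases, with a log2 fold change of 1.38 (SE 0.22, adjusted p = 6.08e-09) against -0.38 for GFI1 itself. Under shA1 EVI5 stood at 0.93 (SE 0.22, adjusted p = 2.34e-04), just below the fold threshold. The hairpins differed for it by 0.45 (SE 0.31, Wald test of the difference, adjusted p = 0.514). The 6 neighbours of GFI1B lay at -0.42 to 0.31 with shA1, -0.47 to 0.31 with shB2 and -0.30 to 0.41 with MC2580. TSC1, which runs on the other strand and shares 2875 bases with the annotated 5′ part of GFI1B, had log2 fold changes of 0.16, 0.15 and 0.03, none of which passed. Those of SNAI1 lay at -0.03 to 0.59 with shA1 and 0.05 to 0.43 with shB2, none of them called.

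None of the corepressors that SNAG factors work through was called. The shares of all genes called were 4.32% higher and 0.786% lower under shA1, 5.58% and 2.91% under shB2, and 0.587% and 0.0162% under MC2580. A list this short may hold no called gene at such shares. The lack of calls was therefore not read as a result about the corepressors. All 17 genes of that list were tested in each comparison, and their median log2 fold changes were 0.13, 0.09 and -0.05 under shA1, shB2 and MC2580, beside medians of -0.00159, 0.00122 and -0.00118 over all genes tested. At any fold, 4 of 17 passed the p-value under shA1, 7 under shB2 and 0 under MC2580, beside 19.3%, 26.3% and 0.76% of all genes. GSE1, which the hairpins target, is on the list and is 1 of the 4 and 1 of the 7. RCOR1, the CoREST scaffold that links LSD1 to histone deacetylases, was among those higher in both knockdowns at 0.48 (SE 0.12, adjusted p = 4.03e-04) and 0.64 (SE 0.12, adjusted p = 3.68e-07). EHMT2, a histone H3 lysine 9 methyltransferase, was lower at -0.48 (SE 0.13) and -0.47 (SE 0.13). RCOR1 and EHMT2 were picked after their values were seen.

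Among 25 genes known as repressed by GFI1 or GFI1B, 21 were tested in each comparison. Under shA1, 7 rose and 1 fell, under shB2, 5 rose and 2 fell, and under MC2580, 1 rose. Over all genes the shares called higher were 4.32%, 5.58% and 0.587%, and those called lower 0.786%, 2.91% and 0.0162%. The list medians were 0.30, 0.28 and 0.08. CDKN1A, which encodes the cell cycle inhibitor p21, rose by a log2 fold change of 2.43 (SE 0.17) under shA1 and 3.06 (SE 0.17) under shB2, and ID2, an inhibitor of bHLH factors, by 1.72 and 2.39. CSF1, the macrophage growth factor, rose by 2.48 and 1.86, and SOCS1, a brake on cytokine signaling, by 1.73 and 2.46. None of these 4 genes was called under MC2580. IRF8, a monocyte lineage factor, was the 1 gene of the list called in every comparison, at 1.53 (SE 0.14), 2.48 (SE 0.14) and 1.60 (SE 0.25, adjusted p = 1.04e-07). EGR1, an immediate early factor, went the other way in both knockdowns, at -2.43 (SE 0.71, adjusted p = 0.00398) and -4.99 (SE 0.72, adjusted p = 6.61e-11). CEBPE, a granulocyte factor picked because few genes fell, was at -0.89 under shA1 (SE 0.14, adjusted p = 2.49e-09), short of the fold threshold, and fell under shB2 at -1.18 (SE 0.14).

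Genes of erythroid and megakaryocyte cells, where GFI1B acts, were in part expressed. Of 20 genes, 12 were tested in each knockdown and 11 with the inhibitor, with base means as high as 4170 for NFE2 and 3547 for GATA2 in the knockdown arm, while the globin genes HBG1 and HBG2 and the platelet gene PF4 were at 0 in both arms. No gene of the list was called under shA1 or MC2580. Over all genes, 4.32% were called higher and 0.786% lower under shA1, and 0.587% and 0.0162% under MC2580. For shB2 the shares were 5.58% and 2.91%. At such shares a list this short may hold no called gene. The lack of calls was therefore not read as a result about GFI1B. Under shB2, ITGA2B, which encodes platelet integrin αIIb, rose by 1.26 (SE 0.22), LMO2, a stem cell and erythroid cofactor, fell by 1.32 on the log2 scale (SE 0.14), and ITGB3, the partner of ITGA2B, rose by 6.68 (SE 1.98), an estimate from few reads, with a base mean of 9.21. The list medians were 0.10, 0.29 and 0.19.

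The targets of SNAI factors were read for SNAI1. Of 17 epithelial genes, 8, 10 and 11 were tested under shA1, shB2 and MC2580, and none was called in either direction. Of all genes, 4.32%, 5.58% and 0.587% were called higher and 0.786%, 2.91% and 0.0162% lower. With so few genes tested, the lack of calls was not read as a result about SNAI1. CDH1, the best known of the epithelial genes, had base means of 0 and 0.859, where a fall could not be seen. DSP, a desmosome gene, stood at 0.98 under shA1 (SE 0.26, adjusted p = 0.00112), just below the fold threshold. Of 18 genes of the mesenchymal transition, 16 were tested, and 6 rose under shA1, 4 under shB2 and 0 under MC2580, beside 4.32%, 5.58% and 0.587% of all genes. The list medians were 0.65, 0.21 and -0.04. LOXL2, a matrix enzyme, rose by 1.35 and 1.78, and TGFBR1, a receptor of TGF-β, by 1.34 and 1.05. MMP2, a gelatinase, rose by 1.07 and 2.52. MMP9, the other gelatinase, rose by 2.02 (SE 0.33) under shA1 and was at -0.24 (SE 0.33) under shB2, and TGFBR2 rose by 1.44 (SE 0.15) and was at -0.05 (SE 0.15). VIM, which encodes vimentin, was not called but passed the p-value under each treatment, at 0.86, 0.73 and 0.70.

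**Figure D3:**
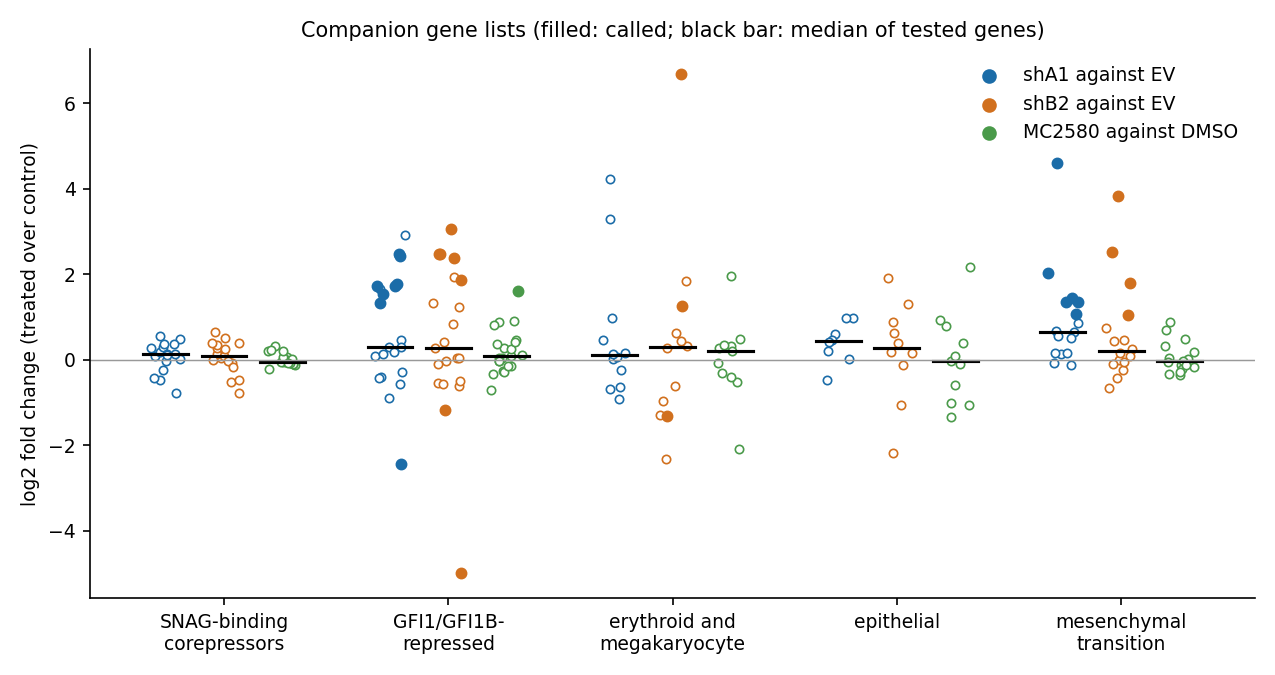
Log2 fold change (treated over control) of each tested gene in the 5 companion lists that could be tested, by comparison. Filled points were called and black bars are list medians. The 17 corepressors and the epithelial list hold no filled point, and under MC2580 the 1 filled point is IRF8 at 1.60.

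GFI1B was then placed among the other genes that MC2580 raised. Of these 109 genes, 107 had a test between the hairpins. Of the genes that differed, 11 were higher under shB2 than under shA1 and 3 were lower, which is 10.3% and 2.80% of the 107. Over all genes tested, 0.828% were called higher and 2.2% lower. The 3 lower genes were GFI1B at -2.13, ICAM1, a leukocyte adhesion molecule, at -1.47 (SE 0.39, adjusted p = 0.00329), and IFIT3, an interferon-induced gene, at -2.87 (SE 0.62, adjusted p = 1.14e-04). Against EV under shB2, ICAM1 and IFIT3 stood at 2.39 and 1.52 and GFI1B at -0.22. The largest difference in the other direction was that of S100A8, a calcium-binding protein of neutrophils and monocytes, at 4.28 (SE 0.83, adjusted p = 1.07e-05). Some genes lay far out in either direction without passing the test, such as GBP1 at -2.65 and PI16 at 3.06. ICAM1, IFIT3, S100A8, GBP1 and PI16 were named after their values were seen.

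**Figure D4:**
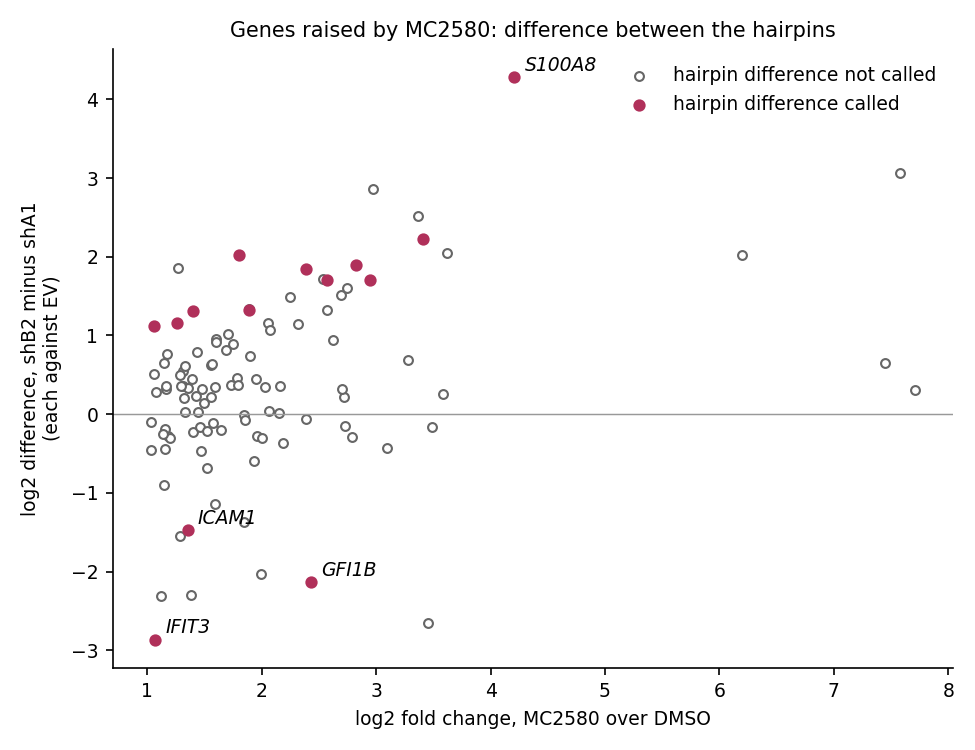
Difference between the hairpins (shB2 minus shA1, log2) against the log2 fold change under MC2580 for the 107 genes that MC2580 raised and that could be tested between hairpins. Filled points passed the test of the difference. GFI1B lies at 2.43 and -2.13, and S100A8, at 4.21 and 4.28, lies opposite.

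Genes with a pattern like that of a member were then looked for. Patterns were compared as the Euclidean distance over the 3 log2 fold changes among 10916 protein-coding genes whose base mean reached 50 in each arm. The nearest to GFI1B were NAV3 (distance 1.12, with 1.24, 0.10 and 1.60 under shA1, shB2 and MC2580), CCDC74A (distance 1.19, with 1.12, 0.52 and 1.93) and EPHB2 (distance 1.20, with 2.27, 0.40 and 1.46). For GFI1 the nearest gene was TMEM265 at 0.119, followed by CXCL8, the neutrophil chemokine, and PFKM, and for SNAI3 it was SLC2A4RG at 0.0294, followed by SCAMP1 and PWWP3A. Such distances grow with the size of the fold changes, so they are not compared between members. SNAI1 was under the base mean limit in the inhibitor arm and was not compared.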

How the data were processed

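mRNA-seq libraries of NB4 cells (TruSeq RNA v2, a kit that keeps no strand) were mapped to hg38 by the authors with STAR (2.7 per the submitters' processing notes) and quantified with RSEM, and the annotation release was not given in the sources used here. The deposited tables hold no values per library. They hold the authors' DESeq2 output, fitted separately for the knockdown arm (6 libraries) and the inhibitor arm (4 libraries): the base mean, a signal of normalised counts averaged over libraries, the log2 fold change with its standard error, the Wald score and p-values, raw and adjusted. These deposited fits replace the count test planned for tables of counts. Columns named 3-1 and 4-2 are shA1 and shB2, a match taken from the study's supplementary gene lists. Each group has 2 libraries, described by the study as biological replicates. The p-values reflect only the spread among such libraries as the authors' DESeq2 fit modelled it.

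From these values, calls (adjusted p under 0.01, log2 fold change over 1 in size, as in the study), 95% Wald intervals, group levels and differences between comparisons were computed (Python 3.11.15, pandas 2.3.3, scipy 1.17.1). A level was solved so that the groups average to the base mean and stand in the ratios of the fold changes. A difference was tested as a Wald statistic, its SE the root of the summed squares, adjusted by Benjamini-Hochberg over genes tested in both, and the script was tested on simulated data. Intervals cover the error of the authors' fit only. Loci came from GENCODE release 44, with genes matched on their identifiers, and alignments used BLOSUM62 (Biopython 1.88). RefSeq promoters were found for GFI1 and GFI1B, not for SNAI1, SNAI2 or SNAI3. Named genes were the members, GSE1, KDM1A, up to 6 called genes per list or neighbourhood by largest change, and 3 nearest patterns per member, and some items that this rule names are not reported here. The members, lists and rules were chosen with earlier results of these data known. Alternatives covered thresholds, filters, centring and the correlation between hairpins.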

Additional observations from a re-analysis of the deposited data

Results flagged for a closer look

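GFI1B differed between the hairpins, by -2.13 on the log2 scale for shB2 minus shA1, each against EV (adjusted p = 9.79e-07, Wald test of the difference). It rose in the shA1 group and not in the shB2 group, while the GSE1 transcript was lowered by both. The paper describes shB2 as more effective than shA1 in depleting GSE1 protein.

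Among the companion genes named in the report, 4 also differed between the hairpins in the same test. ITGA2B was higher under shB2 by 1.51 (adjusted p = 3.53e-05) and MMP2 by 1.45 (adjusted p = 2.29e-08). MMP9 was lower under shB2 by a difference of -2.26 (adjusted p = 4.31e-05) and TGFBR2 by one of -1.48 (adjusted p = 5.33e-10). Of the 22 genes that the naming rule chose and that had a test, 5 differed, GFI1B included, beside 3.03% of all genes, and most of these genes were chosen by the size of their change in these same tables.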

How the results depend on the processing

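GFI1B kept its call and direction under MC2580, in shB2 minus shA1 and in MC2580 minus shB2 under every alternative tried, with adjusted p-values of at most 7.84e-15, 1.96e-06 and 4.75e-09. SNAI1 under shB2 kept its call throughout (adjusted p at most 2.86e-08). With a log2 fold change over 2 required, 0 members were called under shA1, where GFI1B (1.91) and SNAI1 (1.93) stay just under it. With no fold threshold, 3 members passed under shB2 (GFI1 and SNAI3 added) and 2 in MC2580 minus shB2 (GFI1 added). Of all genes, 26.3% and 6.24% passed there, in the same order. The companion lists then gave 27, 27 and 2 called genes under shA1, shB2 and MC2580, against 14, 14 and 1 with the fold threshold. Without that threshold, 19.3%, 26.3% and 0.76% of all genes passed under shA1, shB2 and MC2580. At an adjusted p under 0.05, 2 members were called in MC2580 minus shB2 (SNAI1 added). Centring moved the median of all genes by at most 0.02 and turned the sign of SNAI3 under MC2580 (to 0.00554) and in MC2580 minus shA1 (to 0.00733), both near 0 before and after. Assuming a correlation of 0.5 between the hairpin estimates changed no call of a member. In all, 161 of 169 single gene values kept their call and direction, and 42 of 49 counts moved little or not at all. No paired analysis was possible because the tables hold no value per library. For the same reason fits without 1 replicate and a second count test were not run, so whether 1 library decides a value is not known here. SNAI2, with base means of 0.147 and 0.783, had too few reads for a test. SNAI1 had a base mean of 45.3 in the inhibitor arm and wide intervals there.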
